A study of Saccharomyces cerevisiae with 18 samples.

Results

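The deletion of UBP8 was compared with wild type in Saccharomyces cerevisiae on 6 of the 18 arrays of the study. These are the arrays whose titles set the ubp8 null against wild type, and they are described here across all 6205 ORFs. Each array had 2 channels, and each channel carried total RNA of a single strain grown in YEPD, a rich medium with glucose. The strains were UCC6392(ubp8 null) and UCC6389(wt). Every ubp8 null value thus rests on 1 strain number, and no source used here gives their other alleles or marker genes. The labels number 3 sets of 2 arrays, with the null RNA in channel 2 on one array of a set and in channel 1 on the other. Whether a set stands for a culture of its own is not stated, so the spread that p-values measure here may be technical. The other 12 arrays compared UCC6390(dot4 null) and UCC6393(dot4ubp8 null), the double null, with the same wild type strain, 6 arrays each. In the third set of the double null, 1 array is labelled with the number of the ubp8 null strain.

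Ubp8 is a ubiquitin-specific protease that works inside SAGA, a coactivator complex that also acetylates histones and delivers TATA-binding protein to promoters. Together with Sgf11, Sus1 and Sgf73 it forms the deubiquitinating module of the complex, which removes ubiquitin from histone H2B. That ubiquitin is attached by Rad6 and Bre1 during transcription and is linked to methylation of histone H3 by Set1 and Dot1. DOT4, now called UBP10, encodes another protease that removes ubiquitin from H2B and is known for its part in silencing near telomeres.

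All values are log2 ratios of ubp8 null over wild type, after each array was centred on its own median. They were read as channel 2 over channel 1, the direction in which UBP8 was low on all 6 arrays of its deletion. Read the other way, every sign below would turn. The arrays of a set were averaged, the 3 set means were tested against 0 with limma, and p-values were adjusted over all ORFs by Benjamini and Hochberg. Errors of single ORFs are standard errors of that fit with n = 3 set means. Errors of list medians are the SD of the 3 set medians. An ORF is said to have risen or fallen where its adjusted p was under 0.05. Ratios give no absolute level, so ORFs cannot be ranked by abundance or called absent.

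UBP8 fell 7.66-fold in its deletion strain. It read -2.66, -2.31 and -3.11 on the arrays of sets 1 to 3 that carried the null RNA in channel 2, and -3.20, -3.25 and -3.11 on those that carried it in channel 1. Every array was low, and the mean was -2.94 ± 0.06 (adjusted p = 2.63e-06). Of its 4 neighbours on the right arm of chromosome XIII, FSH2, the gene of a putative serine hydrolase, also fell. FSH2 read -0.58, -0.48 and -0.56 in channel 2 and -0.60, -0.62 and -0.47 in channel 1, with a mean of -0.55 ± 0.03 (adjusted p = 0.000173), a change of 1.47-fold. FMP42, the ORF beyond FSH2, fell by 0.13 ± 0.03 (adjusted p = 0.0131), a call that was lost without set 1, at the same -0.13. On the other side, MRE11 of DNA double-strand break repair lay at -0.02, with a 95% interval of -0.10 to 0.06. MRPL44, a gene of the mitochondrial ribosome, lay at 0.02, with an interval of -0.05 to 0.09. The decrease next to the deleted gene was therefore found on one side of it.

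Genes of the complex that holds Ubp8 changed little. In the deubiquitinating module, for which SUS1 was not analysed here, SGF11 lay at 0.01 (95% interval -0.06 to 0.09) and SGF73 fell by 0.25 ± 0.04. SGF73 read -0.34, -0.21 and 0.29 in channel 2 and -0.29, -0.40 and -0.57 in channel 1, so the third array in channel 2 was the only positive one. Over all ORFs 29.1% rose and 26.9% fell, and the lists below are set beside these shares. Of 17 genes of other SAGA subunits, 2 rose and 6 fell, with a median of -0.07, so that decreases were about as common as over all ORFs. TAF12, a histone-fold subunit that SAGA shares with TFIID, fell by 0.47 ± 0.07. It read -0.74, -0.78 and 0.14 in channel 2 and -0.34, -0.44 and -0.64 in channel 1, and again the third array in channel 2 stood apart. TRA1, the subunit that activators bind, fell by 0.23, and the acetyltransferase gene GCN5 was not called at 0.06 ± 0.03. Among 20 genes of H2B ubiquitination and linked histone methylation, 1 rose and 6 fell, again close to the share of all ORFs that fell. The lowest were the ubiquitin ligase gene BRE1 (-0.23 ± 0.04) and the H3 methyltransferase gene SET2 (-0.22 ± 0.04). RAD6 lay at -0.08, SET1 at 0.03 and DOT1 at 0.07, and none of these passed the test. Of 15 other ubiquitin protease genes, 4 rose and 5 fell, and all changes were small, from UBP10 at -0.17 ± 0.03 to UBP11 at 0.25. UBP10 was called from the spread of these 3 sets (adjusted p = 0.0035). With limma's spread of all 9 set means of the study it was not called (adjusted p = 0.11). That spread includes the dot4 null and the double null, which lack UBP10 (-5.06 and -4.70), so it cannot judge the call here.

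The response as a whole was broad and shallow. Of 6205 ORFs, 1803 rose (29.1%) and 1671 fell (26.9%). The median size of a called change was 0.18 on the log2 scale, or 1.13-fold, and the smallest called change was 0.08. The 5th and 95th percentiles of all ORFs lay at -0.27 and 0.31. HSP30, a membrane heat shock gene, had the largest value that was not called, 0.32, and read 0.42, 0.76 and -0.07 in channel 2 and 0.31, 0.62 and -0.13 in channel 1. It was called without set 1 (0.30) and without set 3 (0.53). At least 1.5-fold, 26 ORFs rose (0.419%) and 21 fell (0.338%). The counts moved with the sets. Without set 1, 1229 ORFs rose and 1090 fell, 17 and 11 of them at 1.5-fold or more, and without set 3 there were 42 and 26 at 1.5-fold or more. Just inside the 1.5-fold line lay SOR1 at 0.59 and YBR113W at -0.59, and just outside lay GIP1 at 0.58 and YBL081W at -0.58.

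Not every call held on both dye orientations. Of the 3474 called ORFs, 2294 (66.0%) had all 6 arrays on the same side of 0, 1139 of them higher and 1155 lower. A further 343 (9.87%) had orientation means of opposite sign. Counts of list members high or low on every array are to be read beside the 66.0%. Fitted on its own 3 arrays, each orientation gave the same call for 1056 ORFs, 556 higher and 500 lower. The difference between orientations itself passed the test for 1344 ORFs (21.7%), 637 with the higher value in channel 2 (10.3%) and 707 with the higher value in channel 1 (11.4%). Of the 26 ORFs past 1.5-fold that rose, 24 had all 6 arrays above 0 and 25 were called in each orientation. Of the 21 that fell, 13 had all 6 arrays below 0 and 12 were called in each orientation. Across ORFs, arrays correlated at r of at least 0.876 among the 3 arrays with the null RNA in channel 1 and at least 0.538 among those in channel 2. Between orientations r lay between 0.236 and 0.578.

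**Figure D1:**
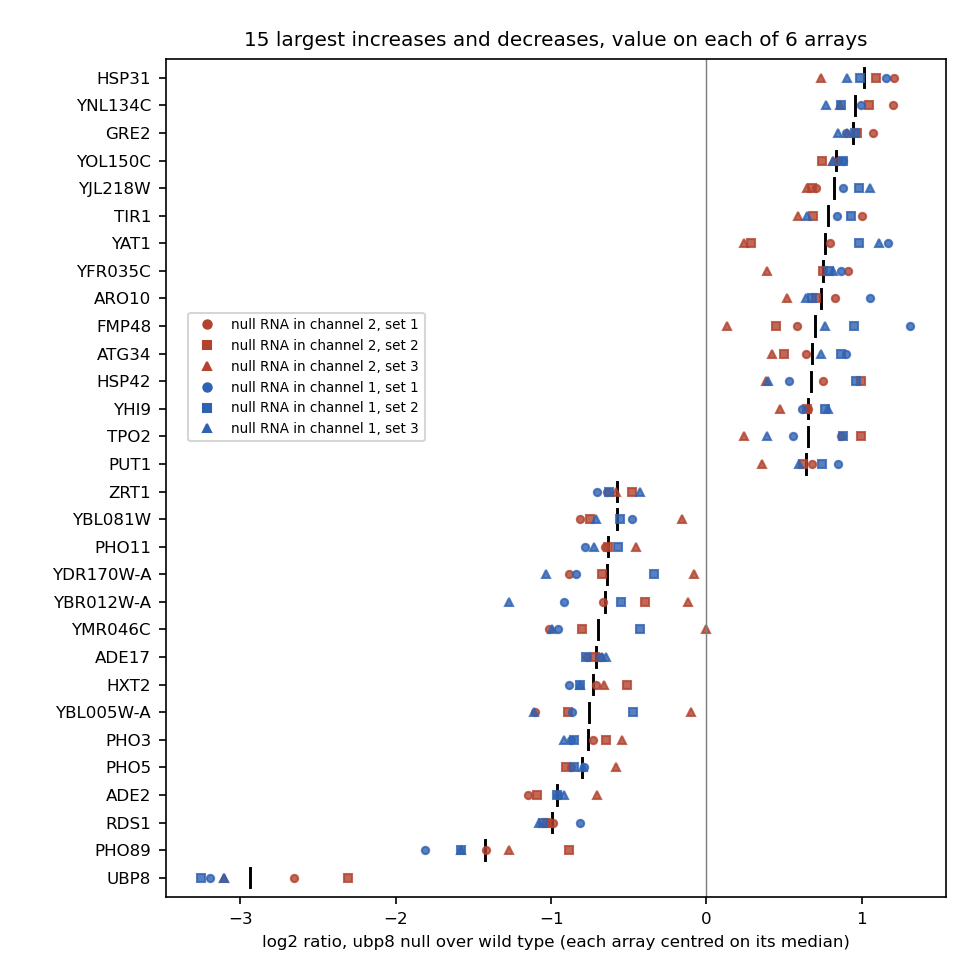
Log2 ratio of ubp8 null over wild type (x axis) of the 15 largest increases and the 15 largest decreases with all 6 arrays on the same side of 0. Red symbols are arrays with the null RNA in channel 2 and blue symbols arrays with it in channel 1, shapes give the set, and the black bar is the mean of the 3 set means. UBP8 stands at -2.94, PHO89 follows at -1.42, and HSP31 leads the increases at 1.02. For YMR046C and the Ty ORFs near it the third array in channel 2 lies close to 0.

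Genes that handle reactive carbonyls and oxidants led the increases. HSP31 (YDR533C), which encodes a methylglyoxalase and chaperone of the DJ-1 family, read 1.21, 1.09 and 0.74 in channel 2 and 1.15, 0.99 and 0.91 in channel 1. It rose 2.02-fold (1.02 ± 0.06, adjusted p = 0.000192), and all 6 arrays were high. YNL134C, an aldehyde reductase gene, read 1.20, 1.05 and 0.86 in channel 2 and 0.99, 0.86 and 0.77 in channel 1, a 1.94-fold increase (0.96 ± 0.05). GRE2, the gene of a methylglyoxal reductase, read 1.07, 0.97 and 0.90 in channel 2 and 0.90, 0.95 and 0.85 in channel 1, a 1.92-fold increase (0.94 ± 0.03). The ORF numbered next to GRE2, YOL150C, rose alongside it by 0.83 ± 0.03. In all 4 the arrays lay close together and neither orientation stood apart.

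The remaining large increases covered several kinds of genes. YJL218W, which encodes a putative acetyltransferase and lies near the left end of chromosome X, rose by 0.82 ± 0.03. TIR1, a cell wall mannoprotein gene of cold and anaerobic growth, read 1.0, 0.69 and 0.59 in channel 2 and 0.84, 0.93 and 0.65 in channel 1 (0.78 ± 0.06). YAT1, a carnitine acetyltransferase gene, read 0.80, 0.29 and 0.24 in channel 2 and 1.17, 0.98 and 1.11 in channel 1. All 6 arrays of YAT1 were positive, but those in channel 1 were higher, and the orientations differed (adjusted p = 0.015). ARO10, the decarboxylase gene of amino acid catabolism to fusel alcohols, rose by 0.74 ± 0.06, and PUT1, which starts proline breakdown in mitochondria, by 0.64 ± 0.05. FMP48, a gene of a putative mitochondrial kinase, rose by 0.70 ± 0.08, with arrays from 0.13 to 1.31. The polyamine exporter gene TPO2 (0.65 ± 0.10) and the small heat shock gene HSP42 (0.67 ± 0.10) had the widest errors of the 15, with their lowest values in set 3. ATG34, a receptor gene of selective autophagy, rose by 0.68 ± 0.04. YHI9 rose by 0.66 ± 0.03 and YFR035C by 0.75 ± 0.05.

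PHO89 fell most after UBP8 itself. This gene of a sodium-coupled phosphate transporter read -1.42, -0.88 and -1.27 in channel 2 and -1.81, -1.58 and -1.58 in channel 1, a 2.68-fold decrease (-1.42 ± 0.07, adjusted p = 0.000105). RDS1, a zinc cluster regulator gene linked to drug sensitivity, read -0.99, -1.02 and -1.02 in channel 2 and -0.81, -1.05 and -1.08 in channel 1, a 1.99-fold decrease. ADE2 of purine synthesis read -1.15, -1.09 and -0.70 in channel 2 and -0.96, -0.96 and -0.92 in channel 1, a 1.95-fold decrease (-0.96 ± 0.05). All 6 arrays were low for each of these 3 genes. HXT2, a high-affinity glucose transporter gene, fell by 0.73 ± 0.04, and ZRT1, the high-affinity zinc transporter gene, fell by 0.58 ± 0.04. YBL081W fell by 0.58 ± 0.05, with the third array in channel 2 at -0.16 and the other 5 between -0.48 and -0.81.

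Several ORFs of Ty elements, the retrotransposons of yeast, were among the other decreases, and on 1 array these stood near 0. YBL005W-A read -1.10, -0.89 and -0.10 in channel 2 and -0.87, -0.47 and -1.11 in channel 1 (-0.76 ± 0.07). YMR046C fell by 0.70 ± 0.08, YBR012W-A by 0.65 ± 0.06 and YJR026W by 0.60 ± 0.07. On the third array in channel 2 these 4 lay between -0.12 and 0.26, above their other 5 arrays. Elements of a family are close copies, so the arrays may not tell them apart and these ORFs are not separate observations. Values near theirs were found for YDR170W-A, YJR028W, YMR051C, YAR010C and YML040W, all between -0.61 and -0.64, and for PTI1 (-0.63 ± 0.07), a gene of mRNA 3' end formation. PTI1 read -0.80, -0.48 and 0.14 in channel 2 and -0.93, -0.62 and -1.06 in channel 1, the same order of arrays as YJR026W. YJR027W, YMR050C and YAR009C, numbered next to YJR026W, YMR051C and YAR010C, turned sign with orientation. Their means were 0.26, 0.44 and 0.42 in channel 2 and -1.92, -1.31 and -1.27 in channel 1.

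The phosphate-responsive genes fell as a group, with a pair of exceptions. Of 17 measured genes of phosphate uptake, phosphatases and polyphosphate, 14 fell and 2 rose, where 26.9% of all ORFs fell and 29.1% rose. Of the 14, 9 were low on every array. The median of the 17 was -0.26 ± 0.03 (SD of the 3 set medians), against 0.00 over all ORFs. PHO5, which encodes the main secreted acid phosphatase and is a standard gene for studies of promoter chromatin, read -0.87, -0.90 and -0.58 in channel 2 and -0.79, -0.85 and -0.80 in channel 1. It fell 1.74-fold (-0.80 ± 0.04, adjusted p = 0.000152). Its neighbour PHO3, the constitutive acid phosphatase gene, fell by 0.76 ± 0.03, and the close copies PHO11 and PHO12, which the arrays may not tell apart, fell by 0.64 ± 0.04 and 0.56 ± 0.04. The vacuolar alkaline phosphatase gene PHO8 fell by 0.41 ± 0.04, and the polyphosphate polymerase gene VTC4 by 0.43 ± 0.03. Decreases were smaller for the regulator genes PHO81 (-0.22) and SPL2 (-0.23). PHO84, the high-affinity phosphate transporter gene, was not called at -0.07 ± 0.03: it read 0.12, 0.14 and 0.18 in channel 2 and -0.23, -0.36 and -0.25 in channel 1. The orientations of PHO84 disagreed in sign on every array (adjusted p of the difference = 0.0017). PHM8, a lysophosphatidic acid phosphatase gene, rose by 0.49 ± 0.04 and PHM7 by 0.23.

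**Figure D2:**
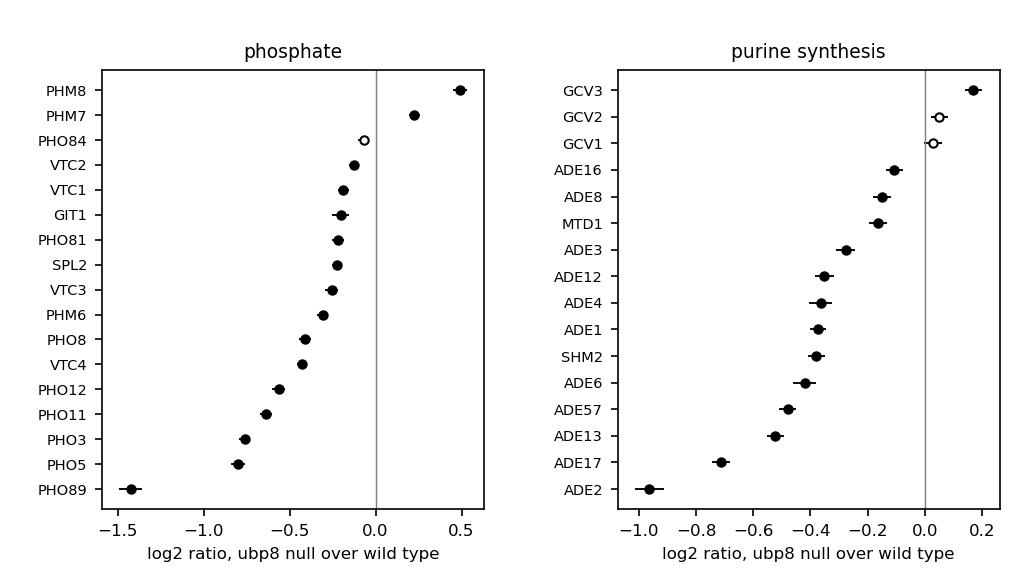
Log2 ratio of ubp8 null over wild type (x axis) with the standard error of the fit, for the 17 measured phosphate genes (left) and the 16 measured genes of purine synthesis (right), sorted by value. Filled points passed the test and open points did not. PHM8 stands at 0.49 and PHO89 at -1.42 on the left, and GCV3 at 0.17 and ADE2 at -0.96 on the right.

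Purine synthesis fell along most of its steps. Of 16 genes of the pathway and its one-carbon supply, 13 fell, 1 rose and 2 were not called, and all 13 were low on every array. Their median was -0.36 ± 0.04 (SD of set medians). After ADE2, the largest decreases were those of ADE17, which acts at the last steps to inosine monophosphate (-0.71 ± 0.03), ADE13, the adenylosuccinate lyase gene (-0.52 ± 0.03), and ADE57, whose product carries out a pair of early steps (-0.48 ± 0.03). ADE17 read -0.77, -0.71 and -0.68 in channel 2 and -0.69, -0.78 and -0.65 in channel 1, so its arrays spread by little. ADE4, the first enzyme gene of the pathway, fell by 0.36 and SHM2, the cytosolic serine hydroxymethyltransferase gene, by 0.38. GCV3 of the glycine cleavage system rose by 0.17, and GCV1 and GCV2 lay at 0.03 and 0.05. The guanine branch changed less: of 6 genes, GUA1 (-0.30) and HPT1 (-0.13) fell and none rose, and HPT1 was not called without set 1, at the same -0.13.

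ADE2 is also a common marker gene of laboratory strains, and other such markers differed as well. URA3, which lacked 1 array in set 1 and rests there on the other orientation, fell by 0.36 ± 0.07, HIS3 by 0.34 ± 0.03 and CAN1 by 0.19 ± 0.03. LEU2 rose by 0.11 ± 0.04, and was not called without set 1 (0.11) or set 2 (0.07). LYS2 read -1.15, -1.0 and -0.23 in channel 2 and 0.50, 0.26 and 0.27 in channel 1, opposite signs by orientation, so its mean of -0.22 ± 0.07 describes neither, and it was -0.15 and not called without set 2 and -0.35 without set 3. TRP1 (-0.05), MET17 (-0.02) and ADH4 (-0.06), the last of these next to a common telomeric reporter site, were not called, although TRP1 was called without set 1 (-0.15). YOR203W, the ORF numbered next to HIS3, fell by 0.52 ± 0.04. Whether marker alleles differ between the strains was not tested.

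Pyrimidine and branched-chain amino acid synthesis genes mostly fell, where 26.9% of all ORFs fell and 29.1% rose, and other amino acid pathways were mixed. Of 10 pyrimidine genes, 8 fell and 2 rose, with a median of -0.17 ± 0.02 (SD of set medians). URA1, the dihydroorotate dehydrogenase gene, fell by 0.57 ± 0.04 and the CTP synthase gene URA7 by 0.40, while the minor isozyme genes URA10 (0.28) and URA8 (0.17) rose. Of 9 genes of branched-chain amino acid synthesis, 7 fell and none rose (median -0.22 ± 0.05), among them LEU9 (-0.41) and ILV3 (-0.33). Histidine, tryptophan and lysine genes were mixed: of 16, 8 fell and 5 rose. HIS4, a classic target of Gcn4, fell by 0.50 ± 0.03, while HIS2 rose by 0.38 and LYS1 by 0.29. Of 23 genes of sulfate assimilation and methionine, 8 fell and 3 rose, a share of decreases not far from that of all ORFs, with the methionine permease gene MUP1 lowest (-0.49 ± 0.03). Of 12 arginine genes, 5 rose and none fell, by at most 0.21 (ARG7).

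Genes for making ribosomes were lower almost throughout. Of 43 genes of the small subunit processome, which cuts and folds the precursor of the small subunit, 38 fell and none rose, 37 of them low on every array. Of 53 genes of large subunit assembly, 47 fell and none rose, 38 of them on every array. Set beside the 26.9% of all ORFs that fell, these are most of each list. Their medians were -0.25 ± 0.07 and -0.23 ± 0.05 (SD of set medians). NOG1, a GTPase gene of large subunit assembly, read -0.46, -0.42 and -0.33 in channel 2 and -0.59, -0.52 and -0.46 in channel 1 (-0.46 ± 0.03). NAN1 of the processome fell by 0.42 ± 0.04, PWP2 by 0.42 and NOP58, a core protein gene of the box C/D particles, by 0.41. No gene of either list reached 1.5-fold.

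Genes of RNA polymerase I and of the aminoacyl-tRNA synthetases also fell, and those of RNA polymerase III fell in part, beside 26.9% of all ORFs. Of 11 genes of RNA polymerase I and its initiation factors, 10 fell and none rose (median -0.25 ± 0.07), led by the largest subunits RPA190 (-0.51 ± 0.03) and RPA135 (-0.50). RPA190 read -0.52, -0.43 and -0.28 in channel 2 and -0.62, -0.60 and -0.62 in channel 1. Of 12 RNA polymerase III genes, 6 fell, none rose and the other 6 were not called (median -0.11), with RPO31, the largest subunit, at -0.47 ± 0.03. All 18 measured aminoacyl-tRNA synthetase genes fell (median -0.30 ± 0.04), 16 of them on every array, from FRS2 at -0.15 to MES1, the methionine enzyme, at -0.45 ± 0.03.

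Ribosomal protein genes themselves gave an answer that turned with the dye orientation. Of 138 genes, 50 fell and 8 rose, with a median of -0.07. Their median was 0.14 on the channel 2 arrays and -0.30 on the channel 1 arrays, and the orientation difference passed the test for 106 of them in that direction. Of the 50 that fell, 7 were low on every array, among them RPS22B (-0.30), RPL18B (-0.21) and RPS7B (-0.20). Elongation factor genes did the same: the median of 9 was 0.15 in channel 2 and -0.29 in channel 1, and TEF1 and TEF2, which encode the same protein, gave 0.16 and 0.17 as means of opposite orientations, or 0.10 and 0.11 without set 3. EFT2 fell by 0.28 and was low on all 6 arrays.

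**Figure D3:**
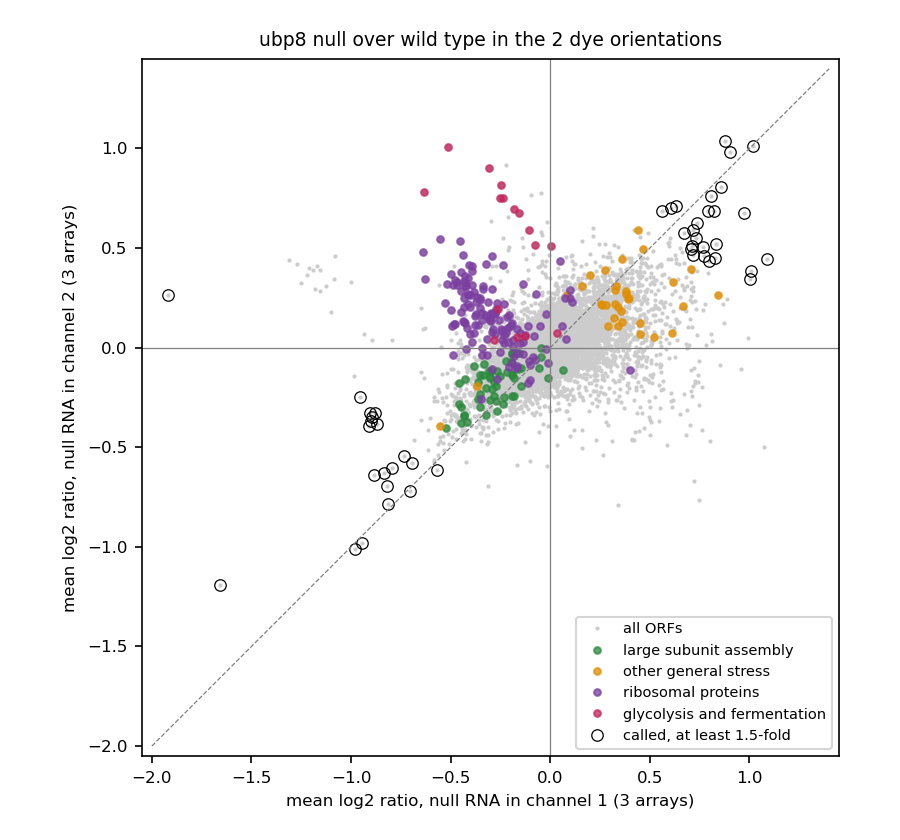
Mean log2 ratio of ubp8 null over wild type on the 3 arrays with the null RNA in channel 1 (x axis) and on the 3 arrays with it in channel 2 (y axis), for all ORFs (grey), 4 gene lists (colours) and the ORFs called at 1.5-fold or more (open circles). The dashed line marks equal values, and UBP8, at -3.19 and -2.69, lies outside the axes. Large subunit assembly genes lie low on both axes and general stress genes high on both, whereas most ribosomal protein and glycolytic genes lie above 0 in channel 2 and below 0 in channel 1.

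General stress genes rose. Of 33 measured genes of the environmental stress response outside the chaperone, trehalose and glycogen lists, 31 rose and 2 fell, beside 29.1% and 26.9% of all ORFs. The median was 0.29 ± 0.06 (SD of set medians), and 22 of the 31 were high on every array. The largest were SOL4, a 6-phosphogluconolactonase gene (0.55 ± 0.06), the phosphatase gene SDP1 (0.55), the glucokinase gene GLK1 (0.51) and the mitochondrial peroxiredoxin gene PRX1 (0.48). SOL4 read 0.59, 0.41 and 0.18 in channel 2 and 0.81, 0.82 and 0.50 in channel 1, always positive. CTT1, the cytosolic catalase gene, rose by 0.29 and GPD1, of glycerol synthesis, by 0.40. YGP1, a secreted glycoprotein gene (-0.47 ± 0.05), and the hexokinase gene HXK1 (-0.28) fell.

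Chaperone genes rose in part. Of 26 heat shock and chaperone genes, 16 rose and 2 fell (median 0.18 ± 0.06), and 9 of the 16 were high on every array. Besides HSP42, the small heat shock gene HSP26 rose by 0.56 ± 0.06, the inducible HSP70 gene SSA4 by 0.47 and AHA1, a cochaperone gene of HSP90, by 0.42. HSP26 read 0.71, 0.44 and 0.44 in channel 2 and 0.77, 0.41 and 0.60 in channel 1. The constitutive genes SSA1 and SSA2 lay at 0.02 each and were not called. SSB1, a ribosome-bound HSP70 gene, fell by 0.24 and the cochaperone gene SSE1 by 0.21. Of 17 trehalose and glycogen genes, 9 rose and none fell, by at most 0.33 (GSY1).

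The oxidant and carbonyl genes were less uniform than their leading members. Of 23 measured genes linked to the regulator Yap1, 13 rose and 2 fell, with a median of 0.20 ± 0.03. After HSP31, YNL134C and GRE2 came SRX1, the sulfiredoxin gene (0.61 ± 0.03), GTT2, a glutathione transferase gene (0.55), FRM2 (0.52) and ATR1, an efflux gene (0.44). The glutathione synthesis genes GSH1 (0.09, called at 0.12 without set 3) and GSH2 (0.00) and the thioredoxin reductase gene TRR1 (-0.04) were not called. ADH7, an alcohol dehydrogenase gene next to RDS1 at the right end of chromosome III, fell by 0.50 ± 0.04. The peroxidase genes TSA1 (0.27) and AHP1 (0.22) were high in channel 2 alone. Of 6 aryl-alcohol dehydrogenase genes, close copies near chromosome ends, 4 rose (median 0.35 ± 0.06), up to 0.57 for AAD6. All 4 members of the HSP31 family rose, although SNO4, HSP32 and HSP33, near-identical copies, did so by 0.20 to 0.27.

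Thiamine genes rose together. Of 18 genes of thiamine and the linked vitamin B6 pathway, 15 rose and none fell (median 0.27 ± 0.03). Of these, 4 passed 1.5-fold, where 0.419% of all ORFs did so. Of the 15, 9 were high on all 6 arrays, a share near that of all ORFs that rose (1139 of 1803). The median was 0.20 in channel 2 and 0.36 in channel 1, and the orientations differed for 5 genes, with channel 1 higher. THI4, which makes the thiazole part, read 0.62, -0.13 and 0.53 in channel 2 and 1.08, 0.94 and 0.99 in channel 1 (0.67 ± 0.08), so its second array in channel 2 went the other way. THI5 (0.62 ± 0.05), THI12 (0.60 ± 0.05), THI11 (0.38) and THI13 (0.50) are near-identical pyrimidine synthesis genes and may share signal. SNZ2 rose by 0.70 ± 0.03, with no value on the third array in channel 2, so that its set 3 rests on the other orientation, and its partner SNO2 rose by 0.35. NAD synthesis from tryptophan rose likewise in part: of 12 genes 6 rose and 2 fell, led by BNA2, the first enzyme gene (0.55 ± 0.04).

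**Figure D4:**
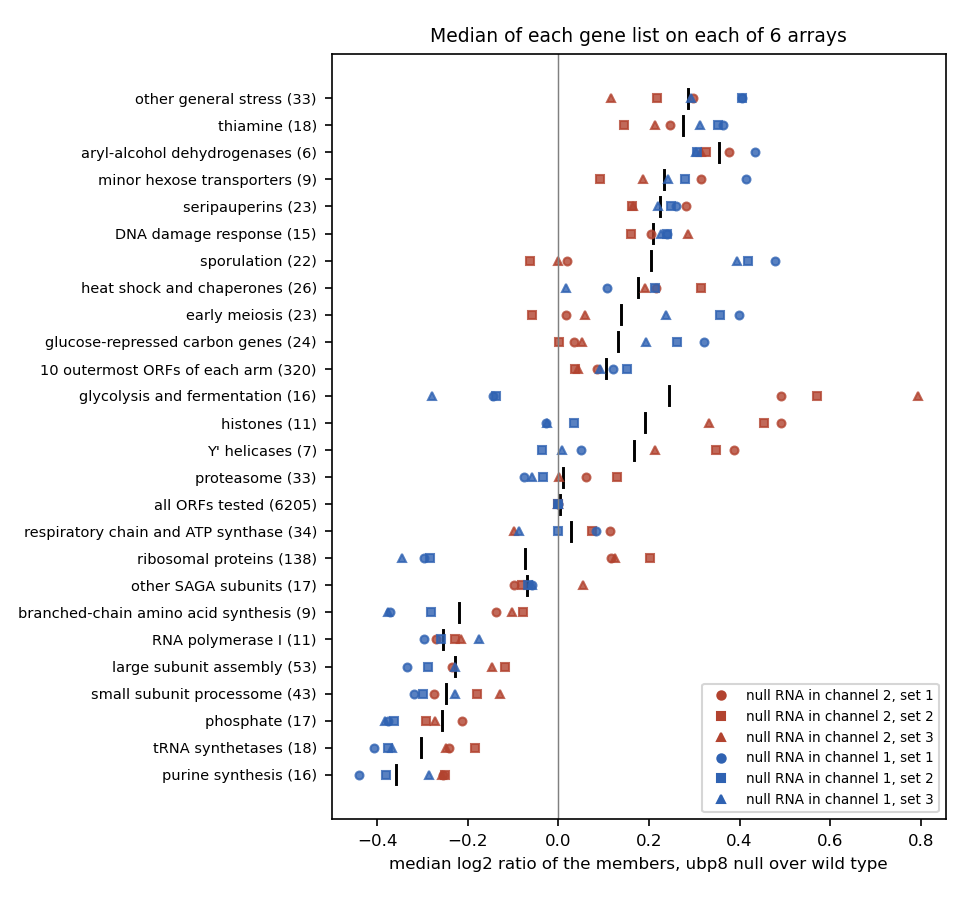
Median log2 ratio of ubp8 null over wild type (x axis) of the measured members of 25 gene lists and of all ORFs, on each of the 6 arrays (colours give the channel of the null RNA, shapes the set) with the median of the fitted values as a black bar. Member numbers are in brackets. Purine, phosphate, tRNA synthetase and ribosome assembly lists lie below 0 on all 6 arrays, general stress, thiamine and seripauperin lists lie above 0 on all 6, and glycolysis, ribosomal protein and histone medians split by orientation.

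Carbon metabolism showed changes in transporters, in part on 1 orientation more than the other, and unclear ones in glycolysis. Of 9 main hexose transporter and sensor genes, 5 fell and 1 rose. HXT2 was lowest, HXT4 lay at -0.30 and HXT1, the low-affinity transporter gene, rose by 0.26 ± 0.04. Of the 5, only HXT2 was low on every array. The median of these genes was -0.04 in channel 2 and -0.30 in channel 1. Of 9 minor hexose transporter genes, close copies that lie mostly near chromosome ends, 7 rose and none fell (median 0.23 ± 0.06). Of the 7, 6 were high on every array, and the largest value was 0.33 for HXT9. Among 24 glucose-repressed genes of alternative carbon use, 17 rose and 1 fell (median 0.13 ± 0.01). Besides YAT1 these were led by the regulator gene SIP4 (0.42, with -0.11 in channel 2 and 0.96 in channel 1) and the carnitine acetyltransferase gene CAT2 (0.37), while MDH2, the cytosolic malate dehydrogenase gene of gluconeogenesis, fell by 0.45 ± 0.03. Only 6 of the 17 were high on every array, and the median was 0.01 in channel 2 and 0.23 in channel 1. Of 16 glycolysis and fermentation genes, 10 rose and 1 fell, but none was on the same side on all 6 arrays. ADH1 read 0.79, 0.93 and 0.98 in channel 2 and -0.24, -0.23 and -0.45 in channel 1, and the list's median was 0.63 in channel 2 and -0.21 in channel 1. Of 34 respiratory chain genes, 8 rose and 3 fell around a median of 0.03, with CYC1 and CYT1 both at 0.28.

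Genes of meiosis and spore formation, silent in vegetative cells, rose mainly on arrays of a single orientation. Of 23 early meiosis genes, 18 rose and 1 fell, and of 22 sporulation genes, 17 rose and 2 fell, beside 29.1% and 26.9% of all ORFs. Their medians stood at -0.02 and 0.01 on channel 2 arrays and at 0.37 and 0.44 on channel 1 arrays. The orientation difference passed the test for 18 genes of each list, always with the higher value in channel 1. HOP1 and DMC1, which act in meiotic chromosome pairing and recombination, were positive on every array: HOP1 read 0.32, 0.17 and 0.40 in channel 2 and 0.75, 0.71 and 0.65 in channel 1 (0.50 ± 0.03), and DMC1 rose by 0.49 ± 0.03. In RNA from whole cultures, a few cells with more of a transcript and more of it in every cell cannot be told apart.

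DNA damage genes rose in both orientations, and histone genes mainly in channel 2. Of 15 damage response genes, 10 rose, all 10 on every array, and 2 fell (median 0.21 ± 0.03). They included MAG1, a DNA glycosylase gene (0.43), and the ribonucleotide reductase genes RNR3 (0.39 ± 0.03) and RNR2 (0.37). Of 11 histone genes, 8 rose and none fell, with a median of 0.44 in channel 2 and -0.05 in channel 1. The H4 genes HHF1 (0.40 ± 0.03) and HHF2 (0.37) were high on every array, while the H2B genes HTB1 and HTB2, which encode the substrate of Ubp8, lay at 0.07 each and were not called. HTB1 read 0.52, 0.42 and 0.28 in channel 2 and -0.31, -0.34 and -0.17 in channel 1.

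Genes near chromosome ends rose more often than they fell. Of the 320 ORFs that are the 10 outermost of each arm by systematic number, 159 rose and 48 fell (median 0.11 ± 0.03), beside 29.1% and 26.9% of all ORFs. Of the 159, 91 were high on every array. The median of the 320 was 0.05 in channel 2 and 0.14 in channel 1. The orientations differed for 74 with channel 1 higher and 26 with channel 2 higher, beside 11.4% and 10.3% of all ORFs. Of 23 seripauperin genes, a family of cell wall protein genes there, 20 rose and none fell (median 0.22 ± 0.03), 19 of them on every array, up to PAU5 at 0.46 ± 0.04. Members of this family are close copies and may share signal. All 7 measured helicase genes of the telomeric Y' elements rose, by 0.12 to 0.17, but with medians of 0.30 in channel 2 and -0.02 in channel 1. They too are close copies, so the 7 may not be separate observations. Of 12 COS genes, 1 fell and none rose. Of 9 cell wall mannoprotein genes of anaerobic growth, 8 rose and none fell (median 0.26 ± 0.12), led by TIR1, CWP1 (0.53) and TIR2 (0.50). Large decreases at chromosome ends included those of PHO89, RDS1, PHO11, ZRT1, URA1 and PHO12.

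Genes that textbooks use as models of SAGA activity did not move one way. Of 12 such genes, 5 fell and 5 rose, with a median of -0.01. PHO5, HIS4, HIS3, SUC2 (-0.19 ± 0.03) and TRP3 (-0.11) fell on every array. INO1 (0.34 ± 0.03), HO (0.23 ± 0.03), GAL10 (0.31 ± 0.04), GAL1 (0.12 ± 0.03) and ADH2 (0.20) rose, INO1 and HO on every array. Cells were grown on glucose, under which the galactose genes are repressed. GAL1 was not called without set 1 (0.11) or set 2 (0.10), nor was TRP3 without set 1 (-0.12). GAL10 read 0.15, -0.12 and 0.05 in channel 2 and 0.69, 0.61 and 0.49 in channel 1, and of the 7 galactose genes 6 rose, none of them on every array.

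Mating-type genes and several housekeeping lists gave small or mixed values, to be read beside the 29.1% of all ORFs that rose and the 26.9% that fell. Of 6 a-specific genes, BAR1 (-0.40 ± 0.03), MFA1 (-0.20) and STE6 (-0.19) fell and MFA2 (0.34) rose. All 4 alpha-specific genes rose, STE3, the a-factor receptor gene, most (0.44 ± 0.03), and 2 of them on every array. Their median was 0.00 in channel 2 and 0.38 in channel 1, and the orientations differed for all 4. Of 7 haploid-specific genes, 3 fell and 2 rose, and of 18 pheromone-induced genes, 5 fell and 4 rose. Of 8 genes at or for silencing, SIR1 (0.16, or 0.14 and not called without set 1) rose and the other 7 were not called. Proteasome genes lay near 0, with 5 of 33 up, 2 down and a median of 0.01. Ergosterol genes were split, with 7 of 22 up and 6 down, ERG25 at 0.39 and HMG1 at -0.26. Of 8 zinc genes, 5 fell and 1 rose (median -0.19 ± 0.04), and of 19 iron uptake genes, 8 rose and 5 fell, decreases being about as common as over all ORFs, with FET4 lowest at -0.45. Cyclin and inhibitor genes gave 2 higher and 2 lower of 13, with CLB1 at 0.22 and CLB2 at -0.17.

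The largest differences between orientations fell on ORFs for which no mean can be given a direction. YJR027W read 0.08, 0.39 and 0.32 in channel 2 and -1.07, -3.09 and -1.60 in channel 1, and its value of -0.83 ± 0.15 rests on channel 1 alone. YMR050C, YAR009C, YML045W and YCL019W also lay higher in channel 2, by 1.59 to 1.75. The opposite difference was found for YHR125W, which read -0.46, -0.56 and -0.48 in channel 2 and 1.51, 0.79 and 0.92 in channel 1, and for YGL262W, YMR082C, YGR273C and COS12. Their means moved with the sets: without set 1 YHR125W stood at 0.17 and YGR273C at 0.12, and the call of YGR273C was lost, and COS12 (0.28 without set 3) and YMR082C (0.19 without set 2) were called there but not over all 3 sets. All 10 differences passed limma's test of the orientation term (adjusted p of 0.011 for YJR027W and lower for the others).

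The ubp8 null was then set against the other null strains in a fit of all 9 set means, which share the wild type strain. Against the dot4 null, 1873 ORFs were higher in the ubp8 null (30.2%) and 1731 lower (27.9%), 58.1% in all. Without centring of arrays the split was 481 and 1432, with the median difference of all ORFs at -0.09 in place of 0.02. Against the dot4ubp8 null, 1300 were higher in the ubp8 null (21.0%) and 1438 lower (23.2%), 44.1% in all, and 319 and 615 without centring. Without the second set of every strain, 529 ORFs were higher and 759 lower than in the double null. The ORFs past 1.5-fold were chosen by their ubp8 null values, so differences in the direction of that choice are partly built in. How many of all ORFs rose or fell against wild type in each other strain is not given here. The counts of ORFs that rose or fell there thus lack a base rate, and no agreement between strains is read from them. Of the 26 ORFs that rose at least 1.5-fold in the ubp8 null, 13 rose and 7 fell in the dot4 null. When both genes were deleted, 25 of them rose and 1 fell. Of these 26, 20 were higher in the ubp8 null than in the dot4 null and 1 was lower, whereas 3 were higher and 18 lower than in the double null. Of the 21 that fell, 16 fell and 2 rose in the dot4 null, and 19 fell and 1 rose when both were deleted. Of these 21, 9 were lower in the ubp8 null than in the dot4 null and 2 higher. Against the double null, 15 were higher and 3 lower. These counts of the 21 include several Ty ORFs, which are not separate observations, and YJR027W, whose orientations disagree in sign.

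Ribosome assembly genes differed between the single nulls throughout. All 43 small subunit processome genes, all 53 large subunit assembly genes, all 11 RNA polymerase I genes and all 12 RNA polymerase III genes were lower in the ubp8 null than in the dot4 null, where 27.9% of all ORFs were. The medians of the first 3 lists were -0.25, -0.23 and -0.25 in the ubp8 null and 0.28, 0.34 and 0.25 in the dot4 null. In the double null they were -0.02, 0.02 and 0.03. Of their genes, 32, 42 and 10 were lower in the ubp8 null than there, beside 23.2% of all ORFs. RPA190 differed by -0.85 ± 0.04 from the dot4 null and by -0.36 ± 0.04 from the double null, and NOG1 by -0.75 ± 0.05 and -0.41 ± 0.05. Under the other settings tried, 41 to 43 processome genes and all 53 large subunit genes were lower than in the dot4 null. Without centring, 12 and 18 of these genes were lower than in the double null, beside 615 of all 6205 ORFs.

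Genes of carbonyl handling gave 3 of the 4 largest positive differences from the dot4 null among the ORFs that rose past 1.5-fold. That choice used the same ubp8 null values, so positive differences were favoured. YNL134C rose by 0.96 in the ubp8 null and lay at -1.19 in the dot4 null and -0.46 in the dot4ubp8 null, differences of 2.15 ± 0.07 and 1.42 ± 0.07. GRE2 stood at 0.94, -0.41 and 0.42 and HSP31 at 1.02, -0.13 and 0.85 in the same order of strains. HSP31 differed from the dot4 null (1.15, adjusted p = 1.5e-06) and its difference from the double null, 0.16, was not called (adjusted p = 0.12). ADE2 was the reverse, at -0.96 in the ubp8 null, 0.79 in the dot4 null and 0.17 in the dot4ubp8 null, and HXT2 stood at -0.73, 0.10 and -0.54. For ZRT1 the values were -0.58 in the ubp8 null, 0.97 in the dot4 null and 0.28 in the dot4ubp8 null. ADE2 is also a common marker gene, and other markers differed too. In the same order, URA3 stood at -0.36, 3.51 and 1.25 and HIS3 at -0.34, -1.86 and -0.37. ADH4, numbered next to ZRT1, stood at -0.06, 3.36 and 1.89. LEU2 (0.11, -0.73 and -0.30) and MET17 (-0.02, 0.50 and 0.16) also differed from the dot4 null. TRP1, LYS2 and CAN1 did not. Whether marker alleles account for any of these values was not tested.

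Other lists also differed between the strains. Over all ORFs, 30.2% were higher and 27.9% lower in the ubp8 null than in the dot4 null. Against the double null the shares were 21.0% and 23.2%, and the counts below are set beside these. The phosphate median was -0.26 in the ubp8 null, -0.59 in the dot4 null and -1.09 in the dot4ubp8 null, and 11 and 14 of its 17 genes were higher in the ubp8 null than in the dot4 null and the double null. PHO89 stood at -1.42, -2.18 and -2.90 and PHO11 at -0.64, -1.38 and -2.20. Among the Ty ORFs, YBL005W-A stood at -0.76, -0.83 and -1.67. Seripauperin genes rose far less in the ubp8 null than in the strains lacking DOT4, with medians of 0.22, 0.84 and 1.12, and 20 of 23 were lower in the ubp8 null than in each of the others. All 7 Y' helicase genes, close copies that may share signal, were lower in the ubp8 null than in either. Their medians were 0.17, 1.01 and 0.57. General stress genes had medians of 0.29, -0.08 and 0.61, 24 of 33 higher in the ubp8 null than in the dot4 null and 18 lower than in the double null. THI4, at 0.67, 0.72 and 1.87, and FMP48, at 0.70, 0.30 and 1.66, were lower in the ubp8 null than in the double null by 1.20 and 0.96.

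**Figure D5:**
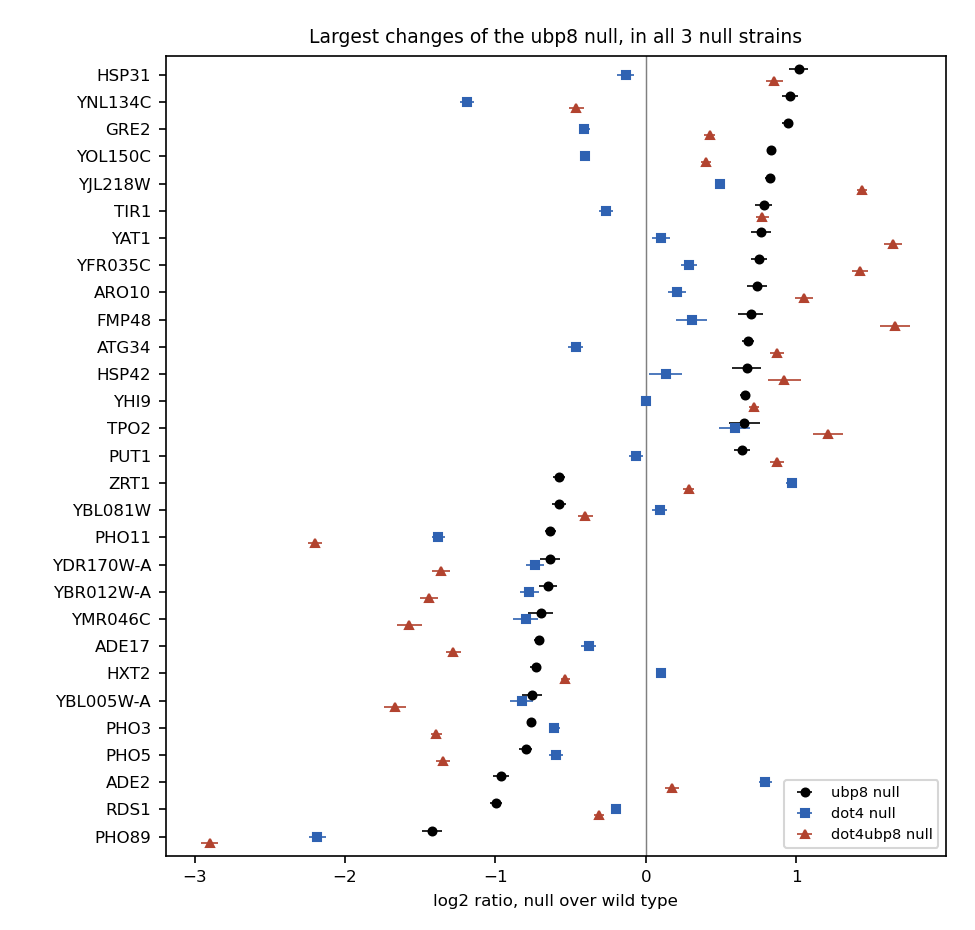
Log2 ratio over wild type (x axis) of the largest changes of the ubp8 null other than UBP8, in the ubp8 null (black circles), the dot4 null (blue squares) and the dot4ubp8 null (red triangles). Bars are standard errors, of the fit on 3 set means for the ubp8 null and of the fit on all 9 for the others. YNL134C lies on opposite sides of 0 in the ubp8 null and the dot4 null, ADE2 and ZRT1 likewise, and PHO89 lies lowest in the double null.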

How the data were processed

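Total RNA was measured on 18 arrays with 2 channels, 6 of them for the ubp8 null. The deposited values are log2 ratios of one channel over the other, 1 per ORF and array, from the authors' processed table. For the array design, background correction and normalization, the authors' methods are not stated in the sources used. The deleted genes show the ratio to be channel 2 over channel 1, whereas the labels' order of dyes could be read the other way. From these values, a stand-in for an undefined ratio (2 values, 1 of them on ubp8 null arrays) and empty cells (9 and 5) were treated as missing. Each array was centred on its median, ratios of arrays that carried the null RNA in channel 1 were multiplied by -1, and the 2 arrays of a set were averaged. A set that lacked an array kept the other one.

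The 3 set means were tested against 0 with limma 3.58.1 (lmFit and eBayes) in R 4.3.3, with Benjamini-Hochberg adjustment over 6205 ORFs and a threshold of 0.05. Strains were compared by contrasts of 9 set means, and orientations by a term in a fit of the 6 arrays. The median SD between set means was 0.0523 and the median standard error 0.0330, and 3 sets limit the precision. Of the ORFs, 5705 matched the RefSeq table by locus tag, and 500 kept their systematic name. The procedure was tested on simulated data. Alternatives were no centring, a common spread between arrays, each orientation alone, pooled spread, set as a replicate block, complete ORFs, and leaving out each set.

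The gene lists and the strains compared were chosen with earlier results of these data known. Genes were named by a rule: UBP8 and its neighbours, the 15 largest called changes each way with all 6 arrays on the same side of 0, the 5 largest orientation differences each way, and up to 4 leading members of each list (2 where none was called). The rule also took the strain markers, the 4 largest differences each way from each other null among ORFs past 1.5-fold, and the ORFs nearest to that threshold. Of 208 genes named, 56 fell outside the rule and were chosen after their values were seen. A list of all Ty ORFs and promoter motifs were not used here.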

Additional observations from a re-analysis of the deposited data

Results flagged for a closer look

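The 6 values of each named gene and of each list median were searched for 1 array far from the other 5 (Dixon's test), and 13 of 272 were found. Such a search is set to find about 1 in 20 groups by chance. On the third array with the null RNA in channel 2 these were CLB2 at 0.006, GAL1 at -0.055, LEU2 at -0.057, PHO5 at -0.584, RPL18B at -0.038, THI13 at -0.071 and YFR035C at 0.393. On the same array the median of the other SAGA subunits stood apart at 0.055. The array with the null RNA in channel 2 in set 1 held HMG1 apart at -0.495. Among the arrays with it in channel 1, RDS1 stood apart at -0.812 and the median of sulfate assimilation and methionine at -0.113 in set 1, URA3 at -0.873 in set 2 and the zinc median at -0.019 in set 3.

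Effects of the ubp8 null that differed from those of another null strain, tested in the limma fit of all 9 set means, are given as log2 differences. From the dot4 null these were -2.87 for UBP8, which only the ubp8 null of this pair lacks, -1.76 for ADE2 and -0.83 for HXT2. Positive differences were 1.24 for YOL150C, 1.35 for GRE2, 2.15 for YNL134C and 1.15 for HSP31. YJR027W gave -0.91, but its ubp8 null value rests on channel 1 alone, so that difference has no clear direction. From the dot4ubp8 null these were 1.48 for PHO89, 1.56 for PHO11, 0.91 for YBL005W-A and 1.42 for YNL134C, and -1.14 for ADE2, -1.0 for THI5, -1.20 for THI4 and -0.96 for FMP48.

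Values with the null RNA in channel 2 minus those with it in channel 1 passed the test of the orientation term at 2.18 for YJR027W, 1.75 for YMR050C, 1.69 for YAR009C, 1.61 for YML045W and 1.59 for YCL019W. The same difference was -1.57 for YHR125W, -1.51 for YGL262W, -1.39 for YMR082C, -1.27 for YGR273C and -1.17 for COS12.

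For 9 lists the medians of all 3 arrays of one orientation lay on the other side of 0 from those of the other, a split that was not tested for lists. On channel 2 arrays and then on channel 1 arrays these were 0.63 and -0.21 for glycolysis and fermentation, 0.15 and -0.29 for translation elongation, and 0.14 and -0.30 for ribosomal proteins. Aromatic amino acid breakdown gave 0.11 and -0.17, the proteasome 0.071 and -0.05, ergosterol synthesis 0.042 and -0.07, and haploid-specific genes 0.029 and -0.19. Silencing genes gave -0.068 and 0.06 and pheromone-induced genes -0.061 and 0.08.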

How the results depend on the processing

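Most values kept their sign and call: of 208 genes named, 203 did with arrays scaled to a common spread, 205 with the spread of all 9 set means, 199 without centring, and 199, 204 and 205 without set 1, 2 and 3. Each orientation alone changed more, 189 of 208 doing so in channel 1 and 152 in channel 2, and the cause of the changes below was not tested. With the null RNA in channel 1 alone, the sign turned for ADH1 (-0.31), ADH2 (-0.14), ADH4 (0.19), AHP1 (-0.21), HTB1 (-0.27), HTB2 (-0.13), LYS2 (0.34), SSA1 (-0.18), SSA2 (-0.15), TEF1 (-0.24), TEF2 (-0.30), TSA1 (-0.044) and YGL262W (0.75). Among list medians farther from 0 than the SD of their set medians, it turned there for histones (-0.047), strain markers (0.00033), glycolysis (-0.21) and Y' helicases (-0.021). With it in channel 2 alone, the sign turned for COS12 (-0.41), SIP4 (-0.11), YAR009C (0.42), YCL019W (0.37), YGR273C (-0.47), YHR125W (-0.50), YJR027W (0.26), YML045W (0.40), YMR050C (0.44) and YMR082C (-0.67). Among such medians it turned there for translation elongation (0.15), ribosomal proteins (0.14), maltose and sucrose (-0.068), early meiosis (-0.018), haploid-specific genes (0.029), folding in the endoplasmic reticulum (0.024) and inositol and phospholipid synthesis (0.020). Medians closer to 0 than that SD turned in channel 1 for aromatic amino acid breakdown (-0.17), pheromone-induced genes (0.08), ergosterol synthesis (-0.07) and the proteasome (-0.05). They turned in channel 2 for SAGA model genes, guanine synthesis and COS genes (0.02 each) and silencing (-0.07). Counts moved as well. Without centring 1170 ORFs rose, 481 were higher than in the dot4 null, and 319 were higher and 615 lower than in the double null. Channel 2 alone gave 834 higher and 695 lower, and channel 1 alone gave 124 higher and 51 lower at 1.5-fold or more. With 1 set left out, ORFs higher ranged from 1229 to 1915, lower from 1090 to 1772, higher at 1.5-fold from 17 to 42 and lower at 1.5-fold from 11 to 26. The lowest of each came without set 1. In the same way, ORFs higher and lower than in the dot4 null ranged from 1326 to 1800 and from 1221 to 1643. Against the double null they ranged from 529 to 1238 and from 759 to 1451, lowest without set 2. With set as a replicate block, the 6 arrays gave 1829 higher and 1725 lower. The set number as a replicate block across strains gave 1874 and 1740 against the dot4 null and 1268 and 1444 against the double null. Deviations of same-numbered sets correlated at 0.274, 0.046 and 0.148 with the dot4 null and at 0.089, -0.103 and -0.256 with the double null, so the numbers were not taken to pair the sets. Ratios carry no intensities here, so dim and bright spots could not be told apart, and the 3 sets limit the precision.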

Other observations

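Further lists fixed for these arrays held smaller changes. Of 11 genes of the tricarboxylic acid cycle, the mitochondrial route that oxidises acetyl groups, 6 rose and none fell (median 0.15 ± 0.09, SD of set medians), beside 29.1% and 26.9% of all ORFs. IDH1, a subunit gene of isocitrate dehydrogenase, rose by 0.30 ± 0.04, the succinyl-CoA ligase gene LSC2 by 0.28 ± 0.03 and the aconitase gene ACO1 by 0.24 ± 0.03, each on all 6 arrays. Of 11 genes of allantoin and urea breakdown, 8 rose and 1 fell. DAL1, the allantoinase gene, rose most (0.37 ± 0.04), with means of 0.17 in channel 2 and 0.56 in channel 1. Of 9 genes of aromatic amino acid breakdown, 4 rose and 4 fell. ARO9, the transaminase gene, rose by 0.38 ± 0.05, while ATF2 and ATF1, which encode the acetyltransferases that form acetate esters, fell by 0.24 ± 0.04 and 0.20 ± 0.03.

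Of 10 maltose and sucrose genes, 4 rose and 2 fell, led by the isomaltase genes IMA1 (0.38 ± 0.04) and IMA2 (0.34 ± 0.03), close copies at chromosome ends. Of 11 genes of inositol and phospholipid synthesis, 4 rose and 3 fell. OPI1, the repressor gene of the pathway, fell by 0.39 ± 0.04 and CHO2, a methyltransferase gene of phosphatidylcholine synthesis, by 0.26 ± 0.03, on all 6 arrays. Of 14 genes of drug efflux and its regulators, 5 rose and 5 fell, and TPO1, a polyamine exporter gene like TPO2, rose by 0.42 ± 0.04. Of 6 flocculin genes and regulators, 3 rose and 1 fell, FLO8, the activator gene, by 0.32 ± 0.06. Of 14 genes of folding in the endoplasmic reticulum, 6 fell and 1 rose, by at most 0.16.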
